A study of Rattus norvegicus with 10 samples.

Results

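Adult neurogenesis in the hippocampus was followed through 10 marker genes of neural progenitors and newborn neurons: Sox2, Nes, Mki67, Top2a, Eomes, Neurod1, Sox11, Dcx, Igfbpl1 and Draxin. They are known markers of these cell stages, listed by name with no threshold on a measured value. Of the 10 genes, 8 were present in the tables of 17168 genes and all 8 passed the filter on low counts. Eomes, a transcription factor of intermediate progenitors, and Draxin, a secreted axon guidance protein, were not analysed here.

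The study asked how RG2833, an inhibitor of histone deacetylases HDAC1 and HDAC3 according to its title, alters gene expression in the hippocampus of TgF344-AD rats. RNA from the left hippocampus of 10 male rats aged 11 months was sequenced, with 1 library per rat. The untreated group held 5 transgenic rats on plain chow, and the RG2833 group held 5 transgenic rats whose chow carried 750 mg of the drug per kg for 6 months, from the age of 5 months. All 10 rats carried the TgF344-AD transgenes, which are driven by a mouse prion promoter and make the strain a model of Alzheimer's disease, and no non-transgenic rats are included here. The tissue was the whole left hippocampus, so that every value averages over all its cells, and fewer cells of a type cannot be told apart from less RNA per cell.

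New granule neurons arise in the subgranular zone of the dentate gyrus, at the inner edge of the granule cell layer. Radial glia-like stem cells there express Sox2 and Nes, divide, and give rise to progenitors and neuroblasts that switch on proneural transcription factors and then Dcx before they mature into granule cells. This process declines steeply with age in rodents. Few markers belong to these cells alone: astrocytes also express Sox2, mature granule cells also express Neurod1, and reactive glia and vessel cells can express Nes.

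None of the 8 measured markers was called different between RG2833 and untreated rats by edgeR's quasi-likelihood test with Benjamini-Hochberg adjustment over all 12161 genes tested, where 0% of genes were called. In the same fit no marker reached an unadjusted p under 0.05, a level that 688 genes (5.66%) reached, and Nes and Igfbpl1 reached it only under alternatives given with them below. For comparison, DESeq2 called 6 genes, none of them a marker. For no marker were the CPM of the 5 treated and 5 untreated libraries fully separate, against 1.00% of all genes tested. The fitted means of 4 markers were higher and those of 4 were lower under RG2833, with a median log2 fold change of 0.01 beside -0.01 over all genes. The signs for Mki67, Dcx, Neurod1, Sox11, Top2a and Igfbpl1 turned under some alternative scalings or left-out libraries. Values are CPM, the counts of a gene per 1000000 counts of the TMM-scaled library, fold changes are RG2833 against untreated, and levels are not compared between genes because no transcript length was used.

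**Figure D1:**
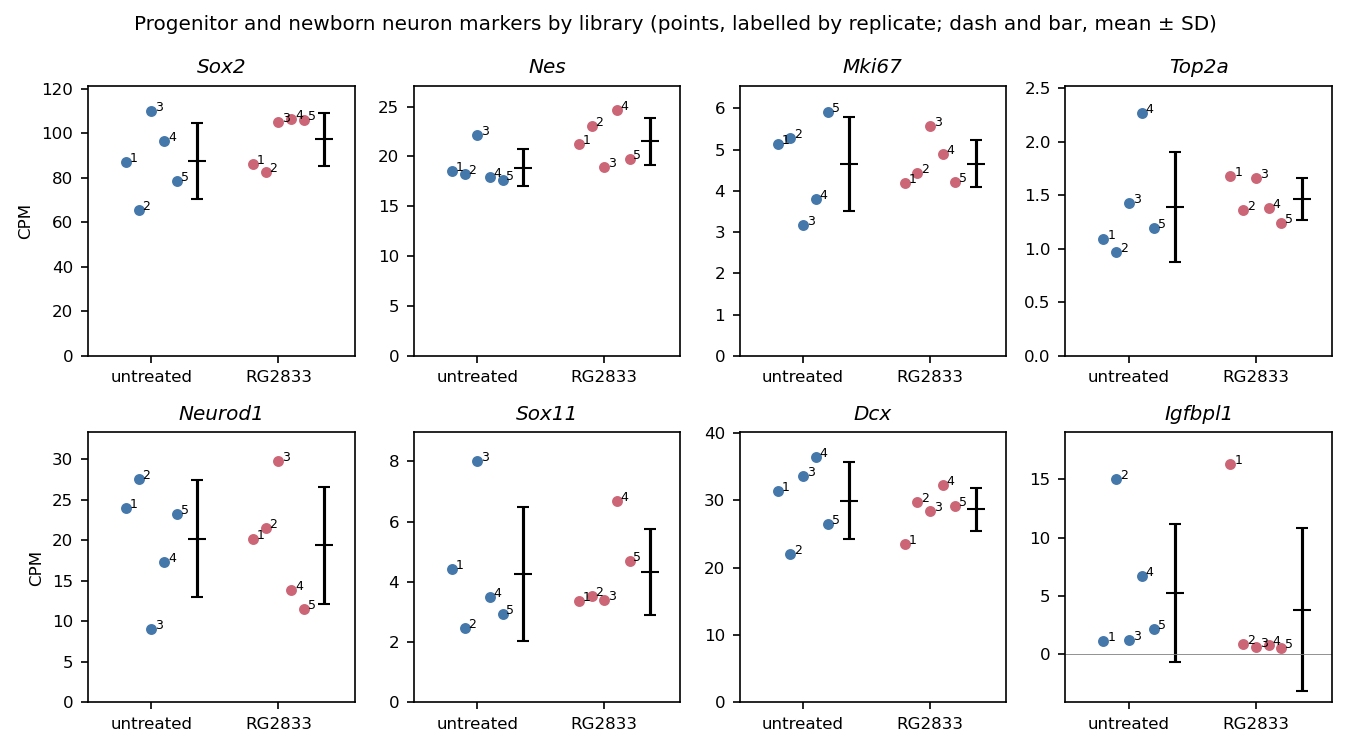
CPM of the 8 measured markers in each of the 5 untreated (blue) and 5 RG2833 (red) libraries, numbered by replicate, with the mean and SD beside each group. The groups overlap for every marker, and Igfbpl1 is set apart in 3 libraries, of which RG2833 replicate 1 is the highest at 16.3 CPM.

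Total counts per library ran from 15118203 to 18533520, and the mean of the RG2833 libraries differed from that of the untreated ones by -7.37% (exact permutation test, two-sided, p = 0.0952). Choroid plexus markers, the genes of the tissue that makes cerebrospinal fluid, summed to 10600 CPM in untreated replicate 2 and 11600 CPM in RG2833 replicate 1, against 108 to 452 CPM in the other 8 libraries. Untreated replicate 3 stood apart in another way, with a summed microglial marker level of 905 CPM where the rest of its group had 493 to 547 CPM, and with the lowest summed level of mature dentate granule cell markers, 264 CPM. Those granule cell markers summed to 264 to 491.5 CPM in the untreated and 303.9 to 432 CPM in the RG2833 group. No other tissue was included for comparison. Of 12 granule cell markers 8 were tested, 1 higher and 7 lower on average under RG2833 (median log2 fold change -0.10). Plk5, 1 of the 7, had an unadjusted p under 0.05 in the edgeR fit and was not called. Tdo2 was listed at 0 in all libraries. With 5 rats a group, the group comparisons below set each difference against the spread between rats. The correlations run over all 10 libraries.

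Sox2, the transcription factor that keeps neural stem cells undifferentiated, was measured at 87.1, 65.6, 110, 96.6 and 78.4 CPM in untreated replicates 1 to 5 and at 86.4, 82.3, 105, 106 and 106 CPM in RG2833 replicates 1 to 5. Untreated replicate 3 was the highest library and untreated replicate 2 the lowest, so that the RG2833 values lay inside the untreated range. The means were 87.5 ± 17.0 CPM in the untreated and 97.2 ± 11.8 CPM in the RG2833 group (SD, n = 5 each). The log2 fold change was 0.15 (SE 0.14, 95% interval -0.15 to 0.45, edgeR adjusted p = 0.919, exact permutation p = 0.294).

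Nestin (Nes), an intermediate filament protein of radial glia-like cells, was the marker closest to a difference. Its level was 18.5, 18.2, 22.1, 17.9 and 17.6 CPM in untreated replicates 1 to 5 and 21.2, 23.1, 18.9, 24.7 and 19.7 CPM in RG2833 replicates 1 to 5. All 5 treated libraries lay at or above the untreated mean of 18.9 ± 1.86 CPM and averaged 21.5 ± 2.37 CPM, but untreated replicate 3 was above 3 of them. Its log2 fold change was 0.19 (SE 0.09, 95% interval -0.02 to 0.40), which ranked 981st of 12161 genes by p and did not pass (edgeR adjusted p = 0.841, exact permutation p = 0.0794). Without untreated replicate 3 it was 0.25, with an edgeR adjusted p of 0.306. An unadjusted p under 0.05 was reached there, without RG2833 replicate 3 (0.23), without RG2833 replicate 5 (0.22) and with limma-voom sample weights (0.25), and the adjusted p passed in none of these.

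Both stem cell markers are also glial genes, and the fitted differences of the astrocyte list had the same sign as theirs. All 10 astrocyte markers tested were higher on average in the RG2833 group, 2 of them at an unadjusted p under 0.05 and none after adjustment, with a median log2 fold change of 0.33. The summed astrocyte level was 6926 to 10790 CPM in the untreated and 8000 to 11860 CPM in the RG2833 group, and no marker of this list was listed at 0. Across the 10 libraries Sox2 followed the mean astrocyte level (r = 0.835, permutation p = 0.00323, adjusted p = 0.0369; rho = 0.818, permutation p = 0.00628, adjusted p = 0.0837). The r was 0.804 without the 2 libraries farthest from the median and 0.820 after centring each group on its mean. For Nes the same relation gave r = 0.64 and did not pass. The part of astrocyte RNA in the Sox2 and Nes values was not tested.

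Mki67, the gene of the proliferation antigen Ki-67, was measured at 5.14, 5.28, 3.16, 3.80 and 5.92 CPM in the untreated and at 4.19, 4.43, 5.56, 4.89 and 4.22 CPM in the RG2833 libraries. The treated values all lay between the untreated extremes. The group means were 4.66 ± 1.14 and 4.66 ± 0.577 CPM, and the log2 fold change of -0.0016 changed sign with the library left out and with the scaling (SE 0.18, 95% interval -0.40 to 0.39, edgeR adjusted p = 1.00, exact permutation p = 0.881). These values rest on 53 to 109 counts per library, for which counting error alone gives a coefficient of variation of about 11.3%.

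Top2a, the topoisomerase that untangles DNA in dividing cells, was measured at 1.10, 0.973, 1.43, 2.27 and 1.19 CPM in the untreated and at 1.68, 1.36, 1.66, 1.38 and 1.24 CPM in the RG2833 libraries. Untreated replicate 4 was the highest and untreated replicate 2 the lowest, with all treated libraries between them. Its log2 fold change was 0.08 (SE 0.24, 95% interval -0.46 to 0.62, edgeR adjusted p = 0.982, exact permutation p = 0.611). Only 18 to 37 counts per library stood behind these values, for which counting error alone gives a coefficient of variation of about 20.5%.

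The promoters of both proliferation genes are shown because they share repeated copies of a motif known from many cell cycle genes. In dividing cells the CCAAT box, bound by NF-Y, often recurs in such promoters. The sequences are RefSeq promoters on build GRCr8, from 250 bases before to 50 after the gene's start, for Mki67 at chr1:199952544-199952843 and for Top2a at chr10:84473044-84473343, each on the minus strand. Capitals mark CCAAT and its reverse complement ATTGG.
Mki67: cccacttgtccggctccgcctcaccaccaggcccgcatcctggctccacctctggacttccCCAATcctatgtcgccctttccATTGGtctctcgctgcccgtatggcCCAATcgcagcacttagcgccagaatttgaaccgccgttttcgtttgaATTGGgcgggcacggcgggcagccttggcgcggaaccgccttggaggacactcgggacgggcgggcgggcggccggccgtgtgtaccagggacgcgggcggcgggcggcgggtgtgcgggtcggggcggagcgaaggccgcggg
Top2a: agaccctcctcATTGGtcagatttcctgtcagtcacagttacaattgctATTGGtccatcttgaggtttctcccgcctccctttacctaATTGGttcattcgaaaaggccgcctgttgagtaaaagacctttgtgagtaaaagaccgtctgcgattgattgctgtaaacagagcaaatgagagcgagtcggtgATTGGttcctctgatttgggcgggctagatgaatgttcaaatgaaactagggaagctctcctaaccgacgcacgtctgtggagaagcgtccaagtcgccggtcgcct
Each promoter held 4 matches on the 2 strands together. Among the other markers Eomes held 3 and Dcx, Sox11 and Sox2 held 1 each. Of all 33469 rat promoters of this length 37.5% held at least 1 match and 0.675% held 4 or more. A match is a description of letters, not a measured binding site. The relation between the levels of the 2 genes over the 10 libraries did not pass (r = -0.461, permutation p = 0.183, adjusted p = 0.285; rho = -0.576, permutation p = 0.0891, adjusted p = 0.241), and r was -0.577 without the 2 libraries farthest from the median. Untreated replicate 4, the highest library for Top2a, was the second lowest for Mki67.

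Neurod1, a proneural transcription factor needed for the survival of newborn granule cells, varied more within the groups than between them. It was measured at 23.9, 27.6, 9.01, 17.4 and 23.2 CPM in untreated replicates 1 to 5 and at 20.2, 21.5, 29.8, 13.9 and 11.5 CPM in RG2833 replicates 1 to 5. The lowest library, untreated replicate 3, and the highest, RG2833 replicate 3, came from different groups. The means were 20.2 ± 7.25 and 19.4 ± 7.18 CPM, and the log2 fold change was -0.06 (SE 0.31, 95% interval -0.75 to 0.63, edgeR adjusted p = 0.995, exact permutation p = 0.905).

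Sox11, a transcription factor of immature neurons that acts on Dcx, was measured at 4.44, 2.46, 8.0, 3.49 and 2.93 CPM in the untreated and at 3.36, 3.52, 3.39, 6.70 and 4.70 CPM in the RG2833 libraries. Untreated replicate 3 was high and RG2833 replicate 4 came next, while 3 of the treated libraries lay between 3.36 and 3.52 CPM. The means were 4.26 ± 2.21 and 4.33 ± 1.44 CPM, and its log2 fold change was 0.03 (SE 0.33, 95% interval -0.70 to 0.76, edgeR adjusted p = 0.996, exact permutation p = 0.770). Its 48 to 134 counts per library imply a counting error of about 11.9%, while its coefficient of variation over all 10 libraries was 40.9%.

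Doublecortin (Dcx), the microtubule-associated protein of migrating neuroblasts and immature neurons and the usual marker of newborn granule cells, was measured at 31.3, 22.0, 33.6, 36.4 and 26.4 CPM in untreated replicates 1 to 5. In RG2833 replicates 1 to 5 it stood at 23.6, 29.8, 28.3, 32.3 and 29.2 CPM. The lowest library of each group was the one rich in choroid plexus RNA, and all treated values lay within the untreated range. Dcx averaged 29.95 ± 5.74 and 28.6 ± 3.21 CPM, and its log2 fold change was -0.06 (SE 0.13, 95% interval -0.36 to 0.23, edgeR adjusted p = 0.975, exact permutation p = 0.738). Dcx was the only measured marker whose deposited counts were not whole numbers, in 10 of 10 libraries. RSEM divides reads that map to more than 1 gene, so the Dcx level depends on that division.

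**Figure D2:**
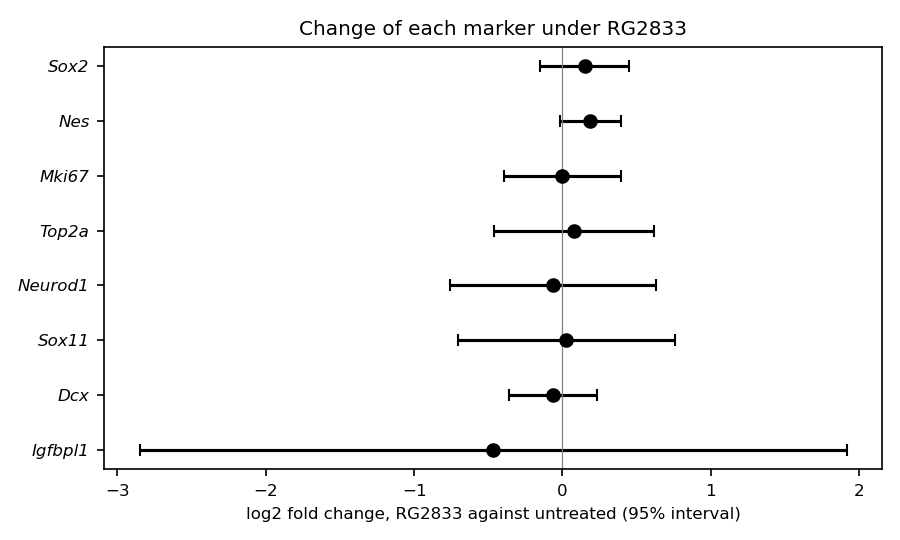
log2 fold change of each measured marker in RG2833 against untreated rats (points) with its 95% interval (bars), from edgeR's quasi-likelihood fit. Every interval spans 0. Nes, with -0.02 to 0.40, comes closest to leaving it and Igfbpl1 has the widest, -2.85 to 1.92.

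Igfbpl1, an insulin-like growth factor binding protein family member used as a marker of newborn neurons, had the widest spread of the markers. It was measured at 1.10, 15.1, 1.25, 6.73 and 2.12 CPM in untreated replicates 1 to 5 and at 16.3, 0.909, 0.640, 0.752 and 0.484 CPM in RG2833 replicates 1 to 5. Untreated replicate 2 and RG2833 replicate 1, the libraries rich in choroid plexus RNA, were the highest of their groups, untreated replicate 4 followed, and the highest library exceeded the lowest 33.7-fold. The log2 fold change was -0.47 (SE 1.08, 95% interval -2.85 to 1.92, edgeR adjusted p = 0.976). The difference in mean log2 CPM, in which each library weighs equally on the log scale, was -1.17 (exact permutation p = 0.278). Single libraries moved the edgeR log2 fold change of -0.47. It was -2.90 without RG2833 replicate 1 (edgeR adjusted p = 0.654), 0.45 without untreated replicate 2, and -1.99 without both (edgeR adjusted p = 0.946). The first and the last of these had an unadjusted p under 0.05.

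The libraries with high Igfbpl1 were also those with high ependymal markers, the genes of the ciliated cells that line the ventricles. Foxj1, the master regulator of motile cilia, was measured at 7.56, 41.6, 7.94, 18.4 and 10.1 CPM in untreated replicates 1 to 5 and at 34.5, 9.26, 5.76, 7.52 and 4.15 CPM in RG2833 replicates 1 to 5. The 3 libraries with the highest Foxj1 were the same 3 that were highest for Igfbpl1. Among 12160 other genes the 5 most like Igfbpl1 by Pearson's r in log2 CPM were LOC654482, Foxj1, Frem1, Otx2 and RGD1562658, with rho of 0.976 for LOC654482 and 0.952 for Foxj1 over 10 libraries. With the mean level of the 5 ependyma genes tested the rho of Igfbpl1 was 0.915. With that of the 4 Cajal-Retzius cell genes tested, without Lhx1 and Lhx5, it was 0.903. Both are given as a description because those 3 libraries stand apart. These relations and the genes like Igfbpl1 were singled out after values were seen, and the part of ependymal or Cajal-Retzius cell RNA in the Igfbpl1 level was not tested.

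The Igfbpl1 promoter is shown for 1 feature linked in general to ciliated cells. RFX transcription factors, which act with Foxj1 on genes of motile cilia, bind the X-box, a repeat in which the letters GTTGCC are common. The RefSeq promoter on build GRCr8, at chr5:64887412-64887711 on the minus strand, holds these letters 55 bases before the gene's start, in capitals here.
Igfbpl1: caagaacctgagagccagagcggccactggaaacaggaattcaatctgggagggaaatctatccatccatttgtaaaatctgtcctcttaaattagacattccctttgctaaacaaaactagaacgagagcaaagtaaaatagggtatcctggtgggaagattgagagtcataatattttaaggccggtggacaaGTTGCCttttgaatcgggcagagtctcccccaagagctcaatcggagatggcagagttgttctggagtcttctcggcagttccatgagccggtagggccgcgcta
On either strand GTTGCC or GGCAAC was present in 12.2% of the 33469 promoters, and the Dcx promoter also held 1 match. Whether any factor binds there was not measured.

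Neurod1 rose and fell with mature granule cell markers, while r with the same list was negative for Dcx and Sox11. Over the 10 libraries Neurod1 and the mean of the mature dentate granule cell list gave r = 0.940 (permutation p = 7e-05, adjusted p = 0.0056; rho = 0.927, permutation p = 0.00032, adjusted p = 0.0128). That r was 0.895 without the 2 libraries farthest from the median and 0.941 after centring within groups. Neurod1 also rose and fell with the CA3 pyramidal cell list (r = 0.915, permutation p = 0.00052, adjusted p = 0.00992; rho = 0.782, permutation p = 0.0105, adjusted p = 0.105), with r = 0.693 without the 2 farthest libraries. None of 6 CA3 genes, 8 microglial genes or 10 oligodendrocyte precursor genes tested was called between the groups. With the microglia list the r of Neurod1 was -0.935 (permutation p = 0.00027, adjusted p = 0.008; rho = -0.927, permutation p = 0.00033, adjusted p = 0.0128), and with the oligodendrocyte precursor list -0.922 (permutation p = 0.0003, adjusted p = 0.008; rho = -0.903, permutation p = 0.00072, adjusted p = 0.0128). Without the 2 farthest libraries these were -0.807 and -0.875. Libraries high for granule cell markers were high for Neurod1 and those high for microglial and precursor markers were low.

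Sox11 moved the other way. With the microglia list r was 0.889 (permutation p = 0.00098, adjusted p = 0.0131; rho = 0.770, permutation p = 0.0125, adjusted p = 0.111), and 0.817 without the 2 farthest libraries. Its relation with the granule cell list was r = -0.813 (permutation p = 0.00369, adjusted p = 0.0369; rho = -0.794, permutation p = 0.00809, adjusted p = 0.0925). That r was -0.495 without the 2 libraries farthest from the median, -0.811 after centring within groups and -0.745 without the 2 choroid-rich libraries. Dcx gave r = -0.591 with the granule cell list and r = 0.536 with the astrocyte list, neither of which passed. In all, 80 relations between 8 markers and 10 lists were computed. Of these 23 had an unadjusted permutation p under 0.05 and 8 an adjusted one. After centring within groups 10 passed the adjustment, and 8 did without the 2 choroid-rich libraries. None passed once the 2 libraries farthest from the median of each list were left out. That step narrows the range of the list, which by itself lowers r, so it cannot show that the relations rest on those libraries.

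**Figure D3:**
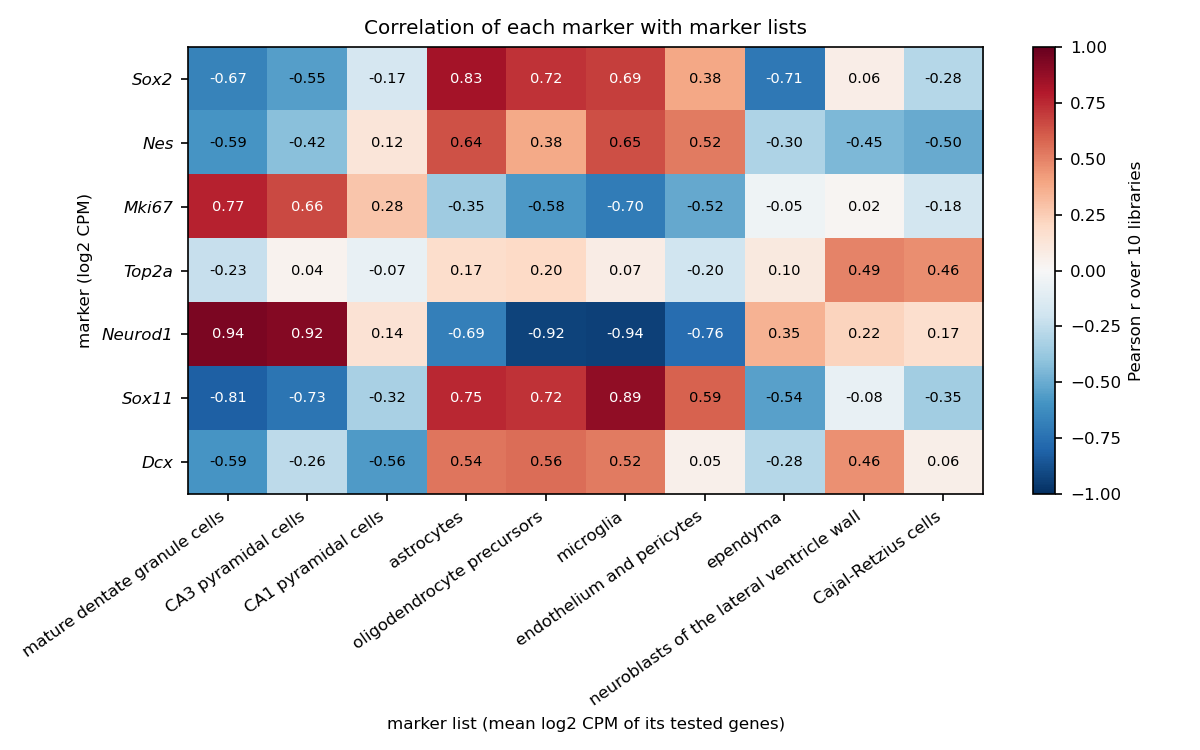
Pearson r between the log2 CPM of each marker (vertical) and the mean log2 CPM of each cell type list (horizontal) over 10 libraries, without Igfbpl1, whose libraries fall into clusters, and without the choroid plexus list. Neurod1 is strongly positive with granule cells (0.94) and negative with microglia (-0.94), and Sox11 shows the opposite signs.

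**Figure D4:**
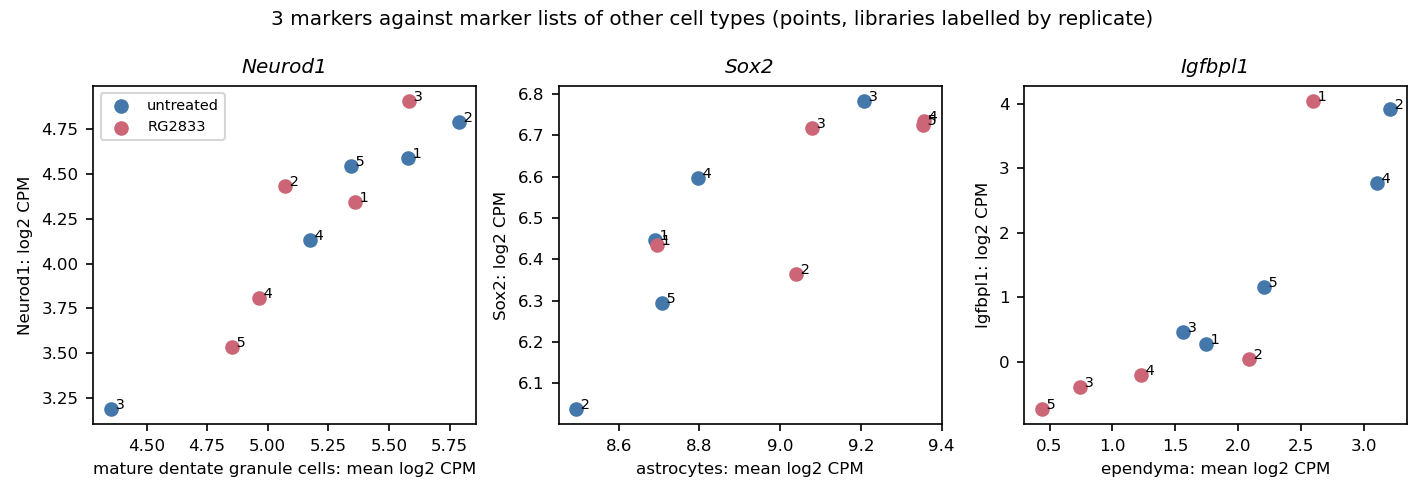
log2 CPM of Neurod1, Sox2 and Igfbpl1 (vertical) against the mean log2 CPM of the mature granule cell, astrocyte and ependyma lists (horizontal) in each untreated (blue) and RG2833 (red) library, numbered by replicate. Untreated replicate 3 is the lowest library for Neurod1 and the granule cell list, and 3 libraries stand above the rest for Igfbpl1.

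Since the summed level of granule cell markers differed between libraries, each marker was also expressed relative to the mean of the 8 granule cell genes tested. On that scale the difference in log2 CPM was 0.03 for Dcx (exact permutation p = 0.984), 0.04 for Neurod1 (exact permutation p = 0.802), 0.11 for Mki67 (exact permutation p = 0.563) and 0.27 for Nes (exact permutation p = 0.444). It was 0.25 for Sox2, 0.20 for Top2a, 0.18 for Sox11 and -1.09 for Igfbpl1 (exact permutation p of 0.294 to 0.81). Without that scaling the difference in mean log2 CPM was -0.05 for Dcx, -0.04 for Neurod1, 0.03 for Mki67 and -1.17 for Igfbpl1. The values of Dcx and Neurod1 thus turned from negative to positive, and none of the 8 differences passed the test.

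Among the 28 pairs of markers 7 had an unadjusted permutation p under 0.05 and none passed the adjustment over the pairs. The strongest was negative, between Sox11 and Neurod1 (r = -0.830, permutation p = 0.00369, adjusted p = 0.0805; rho = -0.721, permutation p = 0.0234, adjusted p = 0.164), and r was -0.620 without the 2 farthest libraries. Neurod1 and Mki67 gave r = 0.781 (permutation p = 0.00737, adjusted p = 0.0805; rho = 0.794), and 0.562 without the 2 farthest libraries. Sox11 and Sox2 gave r = 0.773 (permutation p = 0.00862, adjusted p = 0.0805; rho = 0.855), and 0.731 without them. Dcx and Neurod1, which successive stages of the same neuroblasts express, gave r = -0.530, and Dcx and Sox11 gave r = 0.650 (adjusted p = 0.185 by permutation). After centring within groups 4 pairs passed.

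The genes whose levels were most like that of Dcx over the 10 libraries, among 12160 others, were Ngrn (r = 0.933), Klc1 (r = 0.909), LOC691995 (r = 0.904), Pfkp (r = 0.892) and MGC116197 (r = 0.889). Klc1 encodes a kinesin light chain and Pfkp a phosphofructokinase of glycolysis. The least like were MGC94335 (r = -0.958), Mansc1 (r = -0.952) and Gtf2a2 (r = -0.933), the last a subunit of a general transcription factor. Of the other markers Sox2 stood highest in this order, at rank 250, then Sox11 at rank 418, while Neurod1 was at rank 10494. Without the 2 choroid-rich libraries Ngrn fell to r = 0.824 and rank 57, so that the order rests partly on them. The order of the markers changed as well, to rank 637 for Top2a, 1106 for Igfbpl1 (r = 0.497 in place of -0.523), 1187 for Sox11 and 1624 for Sox2.

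The other genes of the lineage were counted by stage, beside 5652 higher and 6509 lower among all genes tested. None was called, and for none were the groups fully separate. Of 16 stem cell and radial glia genes listed, 13 were in the tables and 12 were tested, of which 10 were higher and 2 lower on average in RG2833 rats, with a median log2 fold change of 0.09. For the dividing cell genes 14 of 18 were tested, 6 higher and 8 lower (median -0.01). For committed progenitors and neuroblasts 11 of 14 were tested, 6 higher and 5 lower (median 0.03). For the cytoskeleton and guidance genes of immature neurons 13 of 14 were tested, 3 higher and 10 lower (median -0.13).

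**Figure D5:**
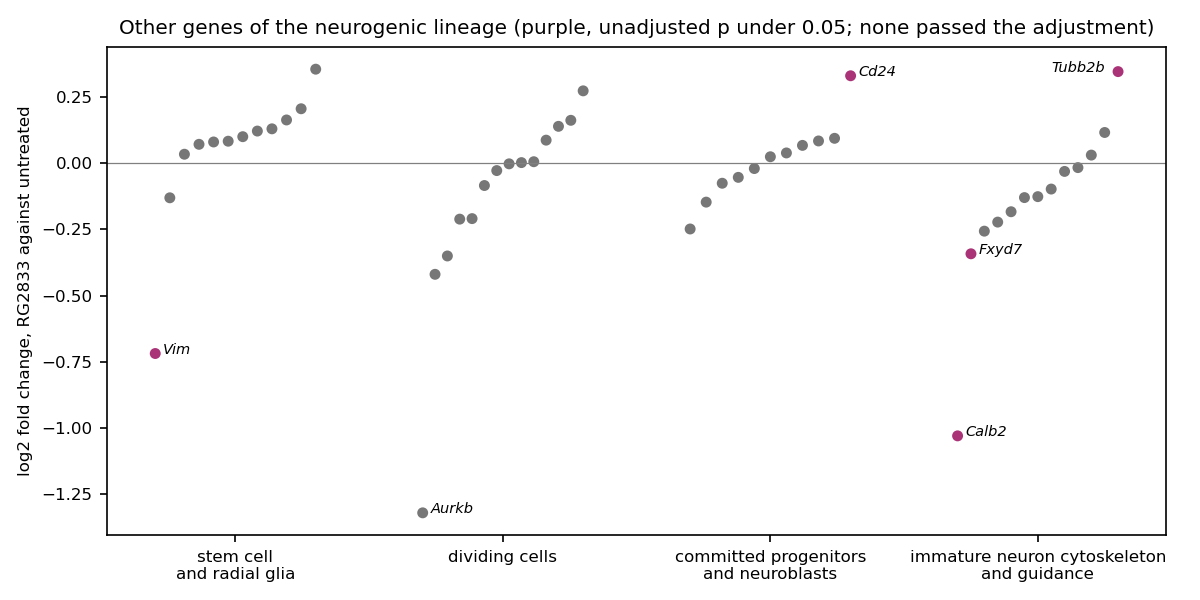
log2 fold change in RG2833 against untreated rats (vertical) of the 50 other lineage genes tested, in 4 stages, sorted within each stage. Purple marks an unadjusted p under 0.05, which 5 genes had, and none passed the adjustment.

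The genes with an unadjusted p under 0.05 did not share a direction, and each had an edgeR adjusted p of 0.841. Cd24, a surface protein of neuroblasts, was measured at 93.4, 82.9, 82.7, 102 and 99.6 CPM in untreated and at 97.6, 118, 120, 133 and 111 CPM in RG2833 replicates 1 to 5, a log2 fold change of 0.33 (SE 0.09). Tubb2b, a beta-tubulin of developing neurons, was measured at 270, 216, 289, 226 and 233 CPM in untreated and at 263, 316, 298, 359 and 332 CPM in RG2833 replicates, a log2 fold change of 0.35 (SE 0.11). For both genes 5 of 5 treated libraries were above the untreated mean, although the groups overlapped, and the Tubb2b counts were not whole numbers in 10 of 10 libraries and depend on how shared reads were divided.

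Vim, an intermediate filament of radial glia that ependymal and vascular cells also make, was measured at 65.4, 216, 101, 134 and 94.5 CPM in untreated and at 71.5, 83.5, 59.7, 74.3 and 81.7 CPM in RG2833 replicates 1 to 5. Its log2 fold change was -0.72 (SE 0.27), and untreated replicates 2 and 4 were the highest. Without untreated replicate 2 it was -0.41, and without both choroid-rich libraries also -0.41, where its unadjusted p was no longer under 0.05, as without RG2833 replicate 3. Calb2, the calretinin gene of immature granule cells and of several other neuron types, was measured at 12, 17.6, 19.5, 44.9 and 11.7 CPM in untreated and at 9.75, 8.40, 10.0, 13.8 and 9.61 CPM in RG2833 replicates, a log2 fold change of -1.03 (SE 0.35) with untreated replicate 4 far above the rest, and -0.56 without that library. Fxyd7, a brain regulator of the sodium pump, averaged 60.2 ± 9.30 CPM without and 47.5 ± 4.77 CPM with RG2833 (SD, n = 5 each), or -0.34 as log2 fold change (SE 0.11). The unadjusted p of Fxyd7 was above 0.05 without both choroid-rich libraries, and that of Calb2 with limma-voom sample weights. Relative to the granule cell list the exact permutation p was 0.214 for Cd24, 0.286 for Tubb2b, 0.206 for Vim, 0.222 for Calb2 and 0.563 for Fxyd7.

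No dividing cell gene reached an unadjusted p under 0.05 in the edgeR fit of all 10 libraries. The nearest were Aurkb, the mitotic kinase Aurora B, and Ccnb1, cyclin B1, both with an edgeR adjusted p of 0.841. Aurkb was measured at 2.94, 7.07, 2.39, 9.55 and 3.85 CPM in untreated and at 3.23, 4.54, 1.09, 1.13 and 0.207 CPM in RG2833 replicates 1 to 5, a log2 fold change of -1.32 (SE 0.63). It was highest in untreated replicates 4 and 2, where Mki67 stood at 3.80 and 5.28 CPM, inside its range in the other libraries. Ccnb1 averaged 1.82 ± 0.382 CPM without and 1.35 ± 0.220 CPM with RG2833 (SD, n = 5 each), or -0.42 as log2 fold change (SE 0.20), on 16 to 38 counts per library. Aurkb reached an unadjusted p under 0.05 in 4 alternatives (DESeq2, the replicate block, without untreated replicate 3 and without RG2833 replicate 2), and Ccnb1 in 3 (leaving out both choroid-rich libraries, untreated replicate 2 alone, or RG2833 replicate 2 alone). Neither passed the adjustment in any of them.

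The lists of 3 other cell types are given beside these genes. The ependyma list, of which 6 of 8 genes were in the tables and 5 were tested, was lower on average in RG2833 for 5 of 5 genes, 1 of them at an unadjusted p under 0.05 (median log2 fold change -1.11). Its summed level was 19.7, 68.5, 19.3, 46.8 and 25.3 CPM in untreated and 51.4, 23.5, 11.3, 16.0 and 10.4 CPM in RG2833 replicates 1 to 5, highest in the libraries that were high for Igfbpl1 and, in the untreated group, for Vim and Aurkb. Of 8 listed markers of neuroblasts of the lateral ventricle wall, which express Dcx and Sox11 as well, 7 were measured. These summed to 22.28 to 40.96 CPM in the untreated and 25.24 to 33.07 CPM in the RG2833 group. Dlx1 alone averaged 20.5 and 18.3 CPM. Gsx2 averaged 0.11 and 0.15 CPM and Isl1 0.08 and 0.01 CPM, and these 2 were not tested. The tested genes were lower on average in 5 of 5 cases, none at an unadjusted p under 0.05. Of 8 listed markers of Cajal-Retzius cells, which also make calretinin, 6 were measured and summed to 80.7 to 141.8 CPM and 66.6 to 151.6 CPM. Reln alone averaged 94.5 and 88.3 CPM. Lhx5 averaged 0.36 and 0.05 CPM and Lhx1 0.14 and 0.05 CPM, and these 2 were not tested. The tested genes were lower in 4 of 4 cases, 2 at an unadjusted p under 0.05. For 1 of the 4 tested, Nhlh2, named after its values were seen, the groups were fully separate, as for 1.00% of all genes tested. It averaged 1.78 ± 0.383 CPM without and 1.07 ± 0.475 CPM with RG2833 (edgeR adjusted p = 0.841). Full separation fixes the exact permutation p at its smallest value, 0.00794, so this p adds no support. None of these 3 lists had a called gene or a gene in the tables listed at 0 in all libraries. Their part in the Vim, Aurkb, Calb2, Igfbpl1 and Dcx values was not tested.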

How the data were processed

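The mRNA of 10 left hippocampi was sequenced as strand-specific libraries with a Kapa mRNA kit, per the labels' protocols. Per the submitters' processing notes, bcl2fastq 2.17, Bowtie2 2.1.0, RSEM 1.2.15, edgeR and genome build rn6 were used. The authors deposited RSEM expected counts per gene, of which 11.6% of values were not whole, and a second table of TMM-normalized CPM, a signal whose columns do not sum to 1000000. Its values came out as whole reads for 100% of values (within 0.01 reads), equal to the rounded counts for 99.9%, and the same count test on them called 0 genes.

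Each expected count was rounded to the nearest whole number, and genes were filtered with filterByExpr (minimum count 10, minimum total 15), which left 12161 of 17168 genes (70.8%). They were scaled with TMM and fitted with edgeR 4.0.16 (robust quasi-likelihood F test, Benjamini-Hochberg threshold 0.05, group only) in R 4.3.3, with limma 3.58.1 and DESeq2 1.42.0 as alternatives. Exact two-sided permutation tests ran over all 252 regroupings of log2 CPM (prior count 2), and the smallest p they allow is 0.00794. Correlations used 100000 resamples. The fit was tested on simulated data. Depth was 15118203 to 18533520 counts per library.

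The markers and lists were chosen with earlier results of these data known. Named lineage genes are those with an unadjusted p under 0.05 or, in a stage without any, the 2 with the smallest p. Genes like Dcx are the 5 highest and 3 lowest by r. Foxj1, the genes like Igfbpl1 and the relations with cell type lists were singled out after values were seen. The design text names another drug, ibudilast, in its sentence on treatment timing, while the title, labels and the rest name RG2833, and the timing given here comes from that sentence. Replicate numbers did not pair the rats, so the replicate number was a block only in an alternative fit. Alternatives were other scalings (median of ratios, upper quartile), filters, tools, the replicate block, prior count, levels relative to the granule cell list and left-out libraries. Promoters came from RefSeq tables on GRCr8, where all 10 markers matched by symbol, and no rn6 coordinates were used.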

Additional observations from a re-analysis of the deposited data

Results flagged for a closer look

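In each group of 5 libraries the highest or lowest value was compared with its nearest neighbour, for 54 sets of values. In 6 sets the gap was more than 0.71 of the group's whole range, and chance gives about 1 set in 20. Igfbpl1 was 16.3 CPM in RG2833 replicate 1 against 0.484 to 0.909 CPM in the other 4 treated libraries. Nes was 22.1 CPM in untreated replicate 3 while the rest of its group had 17.6 to 18.5 CPM. Calb2 was 44.9 CPM in untreated replicate 4 against 11.7 to 19.5 CPM in the others. The summed microglia markers were 905 CPM in untreated replicate 3 against 493 to 547 CPM. The summed choroid plexus markers were 10600 CPM in untreated replicate 2 against 138 to 452 CPM, and 11600 CPM in RG2833 replicate 1 against 108 to 212 CPM.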

How the results depend on the processing

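No marker was called under any alternative run. The count of called genes was 0 under 18 alternatives and 6 with DESeq2. The 688 genes at an unadjusted p under 0.05 became 1263 with limma-voom sample weights, and 375 (without RG2833 replicate 4) to 1732 (without untreated replicate 3) when 1 library was left out, with 424 without RG2833 replicate 5. Same-numbered libraries deviated from their group means with correlations of -0.487 to -0.0339, and 0 of 5 numbers matched best with their own, so the numbers do not pair the rats. With the replicate block 401 genes had an unadjusted p under 0.05, 0 were called, and Igfbpl1 was -1.58. The difference in total count was -9.24% to -5.80% with 1 library left out, and it passed without untreated replicate 4 (-9.19%, exact permutation p = 0.0476). Between markers, 4 pairs passed after centring within groups. Signs turned only for log2 fold changes close to 0 or with intervals spanning it. For Mki67 it was 0.00266 with median-of-ratios size factors, 0.00124 without a filter, 0.00234 with DESeq2, and 0.0223 with the replicate block. As a difference in mean log2 CPM it was already 0.0277 at the prior count of 2, beside 0.0288 at 0.5 and 0.11 relative to the granule cell list. On that last scale Dcx was 0.0323 and Neurod1 0.0378. Igfbpl1 was -1.25 at the prior count of 0.5. Without the 2 choroid-rich libraries Sox11 was -0.0482, Neurod1 0.0527, Mki67 0.0748 and Top2a -0.0867. With 1 library left out Dcx ran from -0.157 to 0.0153, Sox11 from -0.185 to 0.38, Neurod1 from -0.271 to 0.0809, Mki67 from -0.111 to 0.102, Top2a from -0.0266 to 0.321 and Igfbpl1 from -2.9 to 0.451. The cause of these shifts was not tested. Sox2 (0.0629 to 0.246) and Nes (0.138 to 0.268) kept their sign under all 21 alternatives each. Igfbpl1, Top2a and Ccnb1 were not tested at a minimum count of 30. Counts per library were as low as 7 for Igfbpl1 and 18 for Top2a, which limits their precision.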
